A study of Homo sapiens with 2 samples.

Results

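NeuroD1 peaks are described here at the dynein genes, chosen by symbol as every protein-coding RefSeq gene of GRCh38.p14 that begins with DNAH, DNAI, DNAL1, DNAL4, DNALI, DYNC or DYNL. This gave 40 genes of 20037. The genes with a peak among them were selected on the positions of the deposited peaks. Binding was measured by ChIP-seq, which sequences the DNA that an antibody recovers together with its target protein and lists as peaks the places where reads pile up. The cells were wild-type IMR-32, a neuroblastoma cell line, and no treatment is named. The series holds 1 library made with a NeuroD1 antibody and 1 input library without one, which was not analysed here. The list is described by its label, whose catalogue entry for the NeuroD1 antibody also stands in the antibody list of the study. The supplementary ChIP-seq methods name an antibody to H3K27Ac, a histone mark of active enhancers and promoters, although the study lists its H3K27Ac data as a separate CUT&Tag set. There was no replicate. Each value therefore describes 1 library, no test between replicates was possible, and all intervals are at 95% and cover counting error only.

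Dyneins are motor complexes that walk toward the minus end of microtubules. Axonemal dyneins form the inner and outer arms that bend motile cilia and sperm flagella. They are built from heavy chains with the motor domain (DNAH), intermediate chains (DNAI), light chains (DNAL1 and DNAL4) and a light intermediate chain (DNALI1). Cytoplasmic dynein-1 carries cargo toward the cell body of neurons and positions the mitotic spindle, while cytoplasmic dynein-2 returns cargo from the tip of the cilium. Light chains of the DYNL symbols are shared between complexes, and some also occur in axonemal arms. They were counted here as cytoplasmic by symbol. NeuroD1 is a neurogenic basic helix-loop-helix factor that binds E-boxes, DNA words of the form CANNTG.

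A gene was taken to have a peak where a peak of the deposited list lay in the gene or up to 3 kb from either end. By this rule 13 of the 40 dynein genes had a peak, or 32.5%, with a Clopper-Pearson interval (exact) from 18.6% to 49.1%. Of all protein-coding genes, 21.4% had one. The 13 genes held 17 peaks of the 6183 in the list. Of these genes, 10 had 1 peak, DNAH6 and DNAH17 had 2 each and DNAH2 had 3. The set was taken up with the high DNAH2 peak already known, so that peak is given as a description. DNAH2 stays in the counts, shares and densities of the dynein genes, except in those for chromosomes other than 17. These leave out every gene of chromosome 17. Counts with the gene body alone keep the gene but none of its peaks. No count, share or density was repeated with DNAH2 alone left out. The median and range of fold enrichment are also given without this peak.

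Over the whole list the median fold enrichment was 6.79, with an upper quartile of 8.68 and a 95th percentile of 13.8. Fold enrichment is the scaled number of ChIP reads at the summit, the highest point of the peak, over the local background, after 1 is added on both sides. The reads and the background behind each value were solved from the deposited fold enrichment and −log10 p, and the median summit had 17 ChIP reads over an implied background of 1.31. How many reads the library had in all is unknown.

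To show where binding met a dynein promoter, stretches of RefSeq promoter that lay inside a peak are printed for 3 genes, 5′ to 3′ on the strand of the gene, with CANNTG words in capitals. DNAH2 is shown for the highest dynein peak, at chr17:7717494-7717664 on the forward strand. DYNC2I1 is shown as the dynein gene with such a word close to the summit, at chr7:158856408-158856557 on the forward strand. DNAH9 is shown as an axonemal promoter peak without one, at chr17:11598302-11598469 on the forward strand. Bases after the annotated start are left out.
DNAH2: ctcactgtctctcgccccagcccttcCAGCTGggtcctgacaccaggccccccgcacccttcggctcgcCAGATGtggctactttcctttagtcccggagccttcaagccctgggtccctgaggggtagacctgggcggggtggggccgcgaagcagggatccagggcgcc
DYNC2I1: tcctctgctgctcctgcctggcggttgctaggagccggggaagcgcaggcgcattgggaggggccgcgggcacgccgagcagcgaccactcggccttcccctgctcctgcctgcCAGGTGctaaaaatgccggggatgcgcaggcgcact
DNAH9: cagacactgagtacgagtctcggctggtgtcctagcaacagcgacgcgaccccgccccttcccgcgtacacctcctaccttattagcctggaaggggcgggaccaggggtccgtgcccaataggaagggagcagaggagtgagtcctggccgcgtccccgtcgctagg

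In the DNAH2 stretch, which ran from 250 to 80 bp before the annotated start, 2 words were found, CAGCTG beginning 224 bp and CAGATG beginning 181 bp before the start. They lay 250 and 293 bp downstream of the summit, which itself fell outside the promoter window, so the bases under the summit are not shown. In DYNC2I1 the word CAGGTG began 36 bp before the start and 19 bp upstream of the summit. The peak stretches in the promoter windows of DNAH6, DNAH9, DYNC1LI2 and DYNLL1 held no CANNTG. The GC content of the stretches ran from 57.6% in DNAH6 to 83.6% in DYNC1LI2, and was 68.4% in DNAH2.

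E-box words were then counted in the 250 bases before each annotated start, over both strands, since CANNTG reads the same on either and CAGATG was counted together with its reverse complement CATCTG. The general word CANNTG includes the others. Of 35116 promoter windows in RefSeq, 61.8% held CANNTG, 12.2% held CAGATG or CATCTG and 14.0% held CAGCTG. Among the 43 windows of dynein genes the numbers were 26 (60.5%, exact interval 44.4% to 75%), 7 (16.3%, 6.81% to 30.7%) and 6 (14.0%, 5.30% to 27.9%). The shares in dynein promoters thus lay within a few percentage points of those in all promoters, and each interval held the share of all promoters. Of the 5 dynein windows with a summit inside, counted over all 250 bases and not only the part in the peak, 2 held CANNTG, 1 held CAGCTG and none held CAGATG or CATCTG. A count of 0 in 5 windows allows a share of up to 52.2% (exact interval). Of all 2404 windows with a summit inside, 50.4% held CANNTG (48.4% to 52.4%) and 14.8% held CAGCTG (13.4% to 16.3%). CAGATG or CATCTG was held by 7.70% (6.66% to 8.83%). The shares for CANNTG and for CAGATG or CATCTG thus lay below those of all promoter windows, while that for CAGCTG was close to it. A word in capitals above is therefore a match to the letters and is not shown to be a bound site.

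The highest dynein peak stood upstream of DNAH2, which encodes a heavy chain of the inner dynein arm. It ran from 7717018 to 7717664 on chromosome 17 (hg38), was 647 bp wide against a median of 220 bp over all peaks, and ended 80 bp before the RefSeq gene. Its summit lay 474 bp before the start. There were 130 ChIP reads at the summit, with a Poisson interval from 109 to 154, and the implied background was 1.09. The fold enrichment was 61.3, and with the background held fixed the read interval corresponds to 51.3 to 72.7. The −log10 q was 204. The peak ranked 2 of 6183 by fold enrichment, 3 by −log10 q and 78 by width. No other protein-coding gene lay within 3 kb of it. The nearest on the other side was EFNB3, the ephrin-B3 ligand, whose end lay 5.65 kb away.

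Beyond the other end of DNAH2, 2 low peaks lay within both KDM6B, the H3K27 demethylase gene, and LOC124904106. TMEM88 followed at 19.3 kb and 19.0 kb. The peak from 7835570 to 7835735 lay 1828 bp from DNAH2, with a fold enrichment of 6.57 and 14 reads. The peak from 7835881 to 7836027 lay 2139 bp away, with a fold enrichment of 6.36 and 14 reads. Both were nearer to KDM6B than to DNAH2, and both lay below the median of all peaks. The distance limit passed between these peaks and a much higher one. The peak from 7836821 to 7837161, also at KDM6B, lay 3.08 kb from DNAH2 and so was not counted. It had a fold enrichment of 29.9, 74 reads and rank 24.

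Among the other heavy chains, 4 genes had a peak. The DNAH14 peak lay above the median fold enrichment of the list, and those of DNAH6, DNAH9 and DNAH17 lay below it. The DNAH9 peak, at a gene for an outer arm heavy chain, covered the annotated start. It ran from 11598302 to 11598498 on chromosome 17, with its summit 37 bp before the start, 18 reads (10.7 to 28.4) over a background of 2.0 and a fold enrichment of 6.21. SHISA6 lay 34.2 kb and ZNF18 379 kb away, so DNAH9 was the nearest protein-coding gene by far.

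DNAH6, which encodes an inner arm heavy chain, had a peak just outside its lower-coordinate end and another 56.8 kb inside. The peak from 84459210 to 84459402 on chromosome 2 lay 170 bp outside the gene and inside SUCLG1, the succinyl-CoA ligase subunit gene, with its summit 4 bp past the start of SUCLG1. Its fold enrichment was 5.94, with 13 reads (6.92 to 22.2), and the nearest gene beyond SUCLG1 was CTNNA2 at 3810 kb. The second peak, from 84516230 to 84516452, overlapped the DNAH6 promoter window of RefSeq, with its summit 135 bp before that start. It had a fold enrichment of 5.27 and also 13 reads, with SUCLG1 at 57.0 kb and TRABD2A at 305 kb. Their read intervals are the same, so the pair cannot be ordered at this depth.

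DNAH17 and DNAH14 carried peaks inside the gene body. DNAH17 encodes an outer arm heavy chain of sperm flagella. At 78529978 to 78530153 on chromosome 17 it had 16 reads (9.15 to 26.0) and a fold enrichment of 5.35, with PGS1 at 105 kb and CYTH1 at 144 kb. At 78437034 to 78437191 it had 14 reads (7.65 to 23.5) over a background of 3.0, with PGS1 at 12.4 kb and CYTH1 at 237 kb. The fold enrichment of the latter, 3.68, was the lowest of the dynein peaks, with a −log10 q of 2.16 and rank 6033. DNAH14, the longest dynein gene at 470 kb, had a peak from 225138018 to 225138390 on chromosome 1. This peak lay 208545 bp past the nearer annotated start, with 30 reads (20.2 to 42.8) over a background of 3.0 and a fold enrichment of 7.60. Its nearest flanking genes were LBR at 263 kb and CNIH3 at 397 kb. No peak was listed at DNAH1, DNAH3, DNAH5, DNAH7, DNAH8, DNAH10, DNAH11 or DNAH12.

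Of the 5 axonemal intermediate chain genes, 3 had a peak. DNAI2 and DNAI1 encode the intermediate chains of the outer arm. The DNAI2 peak, from 74285168 to 74285424 on chromosome 17, had the highest fold enrichment after DNAH2, at 10.1 (7.25 to 13.8 with the background held fixed), with 38 reads (26.9 to 52.2) over a background of 2.77. Its read interval did not overlap that of the DNAH2 upstream peak. It lay 11079 bp past the annotated start, with TTYH2 at 23.1 kb and KIF19 at 40.8 kb. The DNAI1 peak, from 34475167 to 34475358 on chromosome 9, lay 16419 bp past its start, with a fold enrichment of 7.23 and 14 reads over a background of 1.04. FAM219A lay 16.6 kb from it and ENHO 45.7 kb. The DNAI4 peak, from 66924814 to 66924959 on chromosome 1, crossed an end of the gene, with its summit 49 bp outside. It had a fold enrichment of 5.71 and 15 reads (8.40 to 24.7). MIER1, a transcriptional corepressor gene, lay 0.031 kb from this peak, and INSL5 lay 124 kb away on the other side. No peak was listed at DNAI3 or DNAI7, nor at the light chain genes DNAL1 and DNAL4 or the light intermediate chain gene DNALI1.

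Of the 9 genes with DYNC symbols, 2 had a peak, and each lay at an annotated start. DYNC1LI2 encodes a light intermediate chain of dynein-1, which binds cargo adaptors. Its peak, from 66751575 to 66751737 on chromosome 16, had its summit 4 bp before the start, a fold enrichment of 6.27 and 12 reads (6.20 to 21.0), the fewest of the 17. The divergent transcript DYNC1LI2-DT and TERB1, a meiotic telomere protein gene at 2.90 kb, also lay within 3 kb, and CMTM4 lay 54.8 kb away. DYNC2I1 encodes an intermediate chain of dynein-2. Its peak, from 158856408 to 158856650 on chromosome 7, had its summit 17 bp before an annotated start, a fold enrichment of 7.18 and 14 reads (7.65 to 23.5). On the opposite strand the window of LOC124901796 overlapped the same peak, with ESYT2 at 26.9 kb and LOC124901794 at 103 kb. The heavy chain genes DYNC1H1 and DYNC2H1 had none, nor did DYNC1I1, DYNC1I2, DYNC1LI1, DYNC2I2 or DYNC2LI1. The nearest peak to DYNC1H1 lay 16.2 kb away (fold enrichment 11.3), and that to DYNC2H1 lay 57.3 kb away (9.48).

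Of the 10 light chain genes with DYNL symbols, 3 had a peak. DYNLL2 and DYNLL1 encode the closely related LC8 light chains. The DYNLL2 peak, from 58083071 to 58083438 on chromosome 17, had a fold enrichment of 9.56 (6.84 to 13.0), with 38 reads (26.9 to 52.2) over a background of 3.0. Its summit lay 115 bp outside the gene, and DYNLL2-DT lay within 3 kb. The flanking protein-coding genes were OR4D1 at 64.9 kb and SRSF1 at 75.8 kb. The DYNLL1 peak, from 120495918 to 120496119 on chromosome 12, had its summit 111 bp before an annotated start, with a fold enrichment of 5.95 and 14 reads over a background of 1.47. The same peak overlapped the window of the non-coding gene NRAV, and COQ5 lay 7.16 kb and SRSF9 26.2 kb away. DYNLT1, which encodes a Tctex-type light chain, had a peak from 158642121 to 158642319 on chromosome 6, 2526 bp past its start, with a fold enrichment of 7.53 and 18 reads (10.7 to 28.4). SYTL3, a synaptotagmin-like gene, lay 2.62 kb and TMEM181 6.69 kb from it. DYNLRB1, DYNLRB2, DYNLT2, DYNLT2B, DYNLT3, DYNLT4 and DYNLT5 had none.

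**Figure D1:**
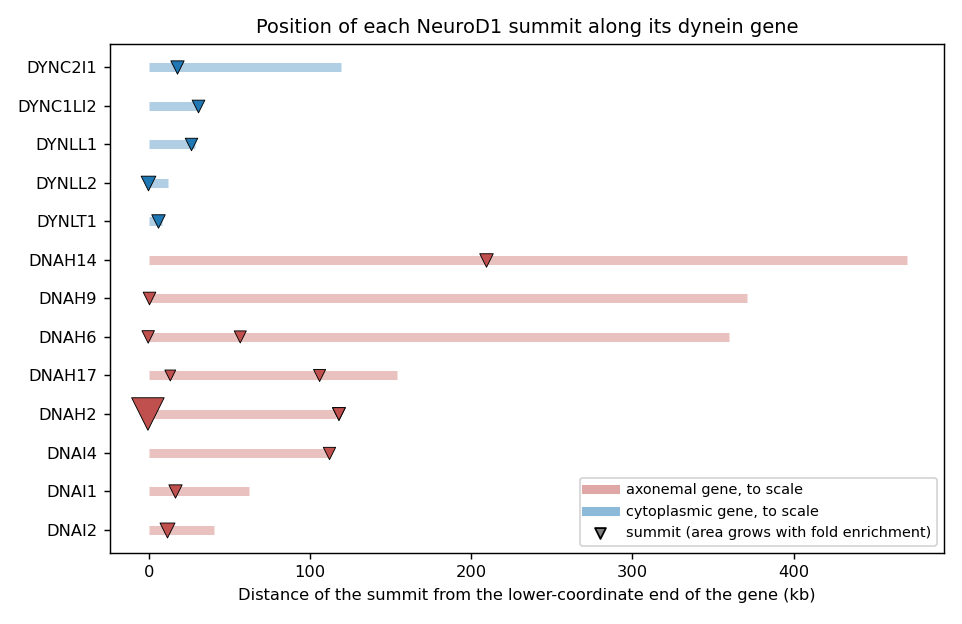
Position of each of the 17 summits along the 13 dynein genes with a peak, as distance from the end of the gene with the lower coordinate (kb); bars are the genes to scale and triangles are summits, larger with higher fold enrichment. The summits of DNAH14, DNAH17, DNAI1, DNAI2, DYNC2I1, DYNLL1, DYNLT1 and the second DNAH6 peak lie inside the gene, and the others lie outside an end by 4 to 2173 bp, with both DNAH2 summits at KDM6B drawn over each other.

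By fold enrichment, 7 of the 17 dynein peaks lay above the median of all peaks, 3 above the upper quartile and 1 above the 95th percentile. Their own median was 6.36. With the DNAH2 upstream peak left out it was 6.31, over a range from 3.68 to 10.1. The 5 cytoplasmic peaks had a median of 7.18 and the 12 axonemal peaks one of 6.29. Below DNAH2, the read intervals of DNAI2 and DYNLL2 (both 38 reads) and DNAH14 (30 reads) overlapped one another. The other 13 peaks had 12 to 18 reads with overlapping intervals, so their order cannot be set at this depth. The DNAH14 interval (20.2 to 42.8) also overlapped those of these 13 peaks. Those of DNAI2 and DYNLL2 (26.9 to 52.2) overlapped, among the 13, only those of DNAH9 and DYNLT1 (10.7 to 28.4).

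**Figure D2:**
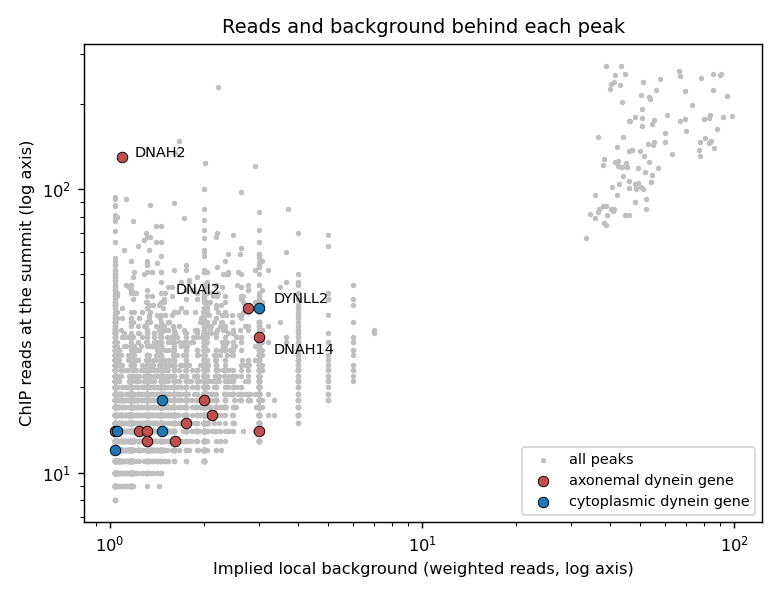
ChIP reads at the summit (vertical log axis) against the implied local background in reads weighted as in the peak calling (horizontal log axis) for all 6183 peaks in grey and the 17 dynein peaks in colour. The DNAH2 upstream peak, with 130 reads over a background of 1.09, lies far above the other dynein peaks, which had 12 to 38 reads over backgrounds from 1.04 to 3.0.

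Peaks at annotated starts were counted with the RefSeq promoter windows, which run from 250 bases before to 50 bases after a start. They were held for 35 of the 40 genes. Among the genes with a peak, DNAH17, DNAI4 and DYNLL2 had no window, so a peak at their own start could not be counted. The DNAI4 and DYNLL2 peaks each crossed an end of the gene. DNAH2, DNAH6, DNAH9, DYNC1LI2, DYNC2I1 and DYNLL1 each had 1 peak that overlapped their own window. For 5 of these 6 the summit lay inside it, and the exception was DNAH2. Counting windows of any gene, 7 of the 17 peaks overlapped one (41.2%, 18.4% to 67.1%), the seventh at SUCLG1, against 2162 of all 6183 peaks (35%). In 3 of the 6, at DYNC1LI2, DYNC2I1 and DYNLL1, the window of a non-coding gene on the opposite strand overlapped the peak as well. For 14 of the 17 peaks the dynein gene was the nearest protein-coding gene, the exceptions being the SUCLG1 peak and both KDM6B peaks. Another protein-coding gene lay within 3 kb of 6 peaks.

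Axonemal and cytoplasmic dynein genes were then set side by side. A peak was present at 8 of 21 axonemal genes (38.1%, exact interval 18.1% to 61.6%) and at 5 of 19 cytoplasmic genes (26.3%, 9.15% to 51.2%). The intervals overlap over most of their range, and both include the 21.4% of all protein-coding genes. With peaks of −log10 q of at least 5 alone, the counts of both classes were as before. The share of all protein-coding genes was then 17.2%, just below the axonemal interval, which includes DNAH2. With the DYNL light chains left out, the cytoplasmic share was 2 of 9 (22.2%, 2.81% to 60.0%). The axonemal genes were longer, with a median length of 154 kb against 28.7 kb for the cytoplasmic genes and 24.1 kb for all protein-coding genes. Over all protein-coding genes the share with a peak rose from 16.6% under 30 kb to 23.8% from 30 to 100 kb and 33.4% over 100 kb. Among genes over 100 kb, a peak was present at 6 of 13 axonemal genes (46.2%, 19.2% to 74.9%) and 1 of 3 cytoplasmic genes. Counted per length of gene and flanks, there were 2.90 peaks per Mb in axonemal genes (exact Poisson interval 1.5 to 5.07) and 3.44 in cytoplasmic genes (1.12 to 8.04), against 3.39 in all protein-coding genes. By this measure the order of both classes was the opposite of that by gene, with intervals that overlap widely. On chromosomes other than 17 the densities per Mb were 1.46 (0.474 to 3.40) in axonemal, 2.79 (0.76 to 7.14) in cytoplasmic and 3.16 in all protein-coding genes.

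The genes with a peak were unevenly spread over chromosomes. All 5 dynein genes on chromosome 17, namely DNAH2, DNAH9, DNAH17, DNAI2 and DYNLL2, had a peak (exact interval 47.8% to 100%). They held 8 of the 17 peaks, and the DNAH2 peak was known beforehand. Per Mb of gene and flanks this was 11.1 peaks (exact Poisson interval 4.77 to 21.8), against 9.51 in all protein-coding genes on chromosome 17. The median length of these 5 dynein genes was 116 kb, against 15.6 kb for all protein-coding genes on that chromosome. On the other chromosomes 8 of 35 dynein genes had a peak (22.9%, 10.4% to 40.1%). Of all protein-coding genes, 33.3% had a peak on chromosome 17 and 20.6% elsewhere. Among those over 100 kb the shares were 48.0% on chromosome 17 and 32.9% elsewhere. Of dynein genes of that length, 3 of 3 (29.2% to 100%) on chromosome 17 and 4 of 13 (9.09% to 61.4%) elsewhere had a peak. Without chromosome 17 the axonemal share was 4 of 17 (23.5%, 6.81% to 49.9%) and the cytoplasmic share 4 of 18 (22.2%, 6.41% to 47.6%). Local background moved with the chromosome. The median implied background was 2.36 over all peaks on chromosome 17 and 1.2 elsewhere, and 2.06 and 1.47 over the dynein peaks. Its part in the count was not tested. The DNAH2 upstream peak had a background of 1.09, close to the lowest value of the list, 1.04.

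Of the 27 dynein genes without a peak, the nearest peak lay between 4.35 kb and 3240 kb away, with a median of 139 kb. DYNC2I2 was nearest to the limit. Its peak lay 4.35 kb away, within 3 kb of SET, with a fold enrichment of 7.71 and 15 reads. A further peak 5.16 kb from DNAI4, at MIER1, had a fold enrichment of 6.33. A gene without a listed peak may still be bound below the limit of the peak calling, since the weakest summit of the list had 8 reads.

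Genes that work with the dyneins were counted by lists of 88 genes in all, of which 25 had a peak (28.4%, 19.3% to 39.0%, against the 21.4% of all protein-coding genes). The 88 genes had a median length of 55.6 kb, against 24.1 kb for all protein-coding genes. Of the 88, 19 were over 100 kb and 8 lay on chromosome 17. Genes of like length were not compared for these lists. Of 12 dynactin genes, whose complex links dynein-1 to cargo, 2 had one, DCTN6 (fold enrichment 13.3) and ACTR1B (10.6, within 3 kb of C2orf92). Of 20 regulators and cargo adaptors of cytoplasmic dynein 8 did (40.0%, 19.1% to 63.9%). They include CCDC88A (11.5), the adaptor BICD1 (9.02, with 7 peaks in all), HOOK1 (8.82) and HOOK2 (8.68, within 3 kb of JUNB), while PAFAH1B1, the LIS1 regulator of dynein, had 1 peak of 5.79. Median gene length in that list was 80.3 kb, and 7 of its genes were over 100 kb.

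Among the 24 assembly and docking factors of axonemal dynein, 7 had a peak (29.2%, 12.6% to 51.1%), led by CCDC40 (9.71), DNAAF10 (9.45), DNAAF19 (8.83) and ODAD3 (7.23). Each of these leading peaks also lay within 3 kb of another protein-coding gene, which were TBC1D16, PNO1, EFTUD2 and PRKCSH. Of 23 intraflagellar transport genes, whose products dynein-2 moves along the cilium, 6 had a peak (26.1%, 10.2% to 48.4%), led by IFT140 (14.0, within 3 kb of TMEM204), TTC21B (10.1), IFT27 (8.68) and IFT74 (5.79). Of 9 ciliary transcription factor genes, 2 did, RFX1 (14.5) and FOXJ1, the master regulator of motile cilia (5.49, within 3 kb of RNF157). The interval of every list includes the share of all protein-coding genes.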

How the data were processed

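The narrowPeak list that the authors deposited for the IMR-32 ChIP library was analysed, and no file of the input was used. The submitters' processing notes name BWA 0.7.17, MACS2 2.2.7 and hg38, whereas the peak names in the deposited file carry macs3. Neither the q threshold nor the control of the peak calling is given in the sources used here. The authors deposited fold enrichment (a ratio with 1 added to each part), −log10 p-value and −log10 q-value at each summit, and a score that follows the −log10 q and was not used. A last deposited column is fold enrichment over peak width and was not used.

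ChIP reads and background at each summit were solved from the fold enrichment and the Poisson p, with a weight of 0.98 per read that fitted the deposited values best. The solved −log10 p was within 0.1 percent of the deposited value at 6181 of 6183 peaks. When tested on 995 simulated peaks the solver returned the reads of 100% of them. These peaks were made with the same formulas that the solver inverts. The test therefore covers the arithmetic and not how the deposited peaks were called. Genes, starts and sequences are from RefSeq of GRCh38.p14. Shares have exact Clopper-Pearson intervals and reads exact Poisson intervals, which treat reads as independent molecules. Every dynein gene with a peak is named, and up to 4 genes per partner list by fold enrichment, plus PAFAH1B1, named after its value was seen. The members and lists were chosen with earlier results of these data known. Alternatives were stricter peaks, the summit, other distances and rank by −log10 q. No genome sequence was used, so words under most summits were not counted. Intervals were computed with scipy 1.17.1, tables with pandas 2.3.3 and numpy 2.4.6 under Python 3.11.15, and plots with matplotlib 3.10.9.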

Additional observations from a re-analysis of the deposited data

How the results depend on the processing

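With peaks of −log10 q of at least 5, fold enrichment of at least 5 or the summit alone, 13 dynein genes kept a peak, with 15, 16 and 17 peaks. There were 12 genes with the gene body alone, which drops the DNAH2 peaks, 14 with 10 kb, and 13 when only peaks nearest to the dynein gene counted. In the last the classes were not counted apart. In the others the axonemal share ran from 33.3% to 38.1% and the cytoplasmic share from 26.3% to 31.6%. The same genes and the same peak list were recounted, so these are no independent checks. The share of all protein-coding genes was 17.2% with the −log10 q limit, 19.7% with the fold enrichment limit, 16% in the gene body alone and 25.1% with 10 kb. With the −log10 q limit it lay below the intervals of the dynein genes (18.6% to 49.1%) and of the axonemal genes (18.1% to 61.6%). In the gene body alone it lay below the interval of the dynein genes (16.6% to 46.5%), and in the main count within it. The intervals with the −log10 q limit count DNAH2 as a gene with a peak, and that setting was not repeated without it. In the gene body alone DNAH2 stays among the 40 genes but counts as one without a peak. The shares are over genes of all lengths, and genes of like length were not compared at these settings. Alternatives without chromosome 17 and with genes over 100 kb were chosen after seeing the data. Without chromosome 17 there were 8 dynein genes and 9 peaks, and 20.6% of all protein-coding genes had a peak. Over 100 kb that share was 33.4%. The cause of these shifts in share was not tested. Ranked by −log10 q in place of fold enrichment, the DNAH14 peak moved from 2378 to 1142, the DNAI2 peak from 868 to 458 and the DYNLL2 peak from 1128 to 509, and the cause was not tested. These 3 peaks had backgrounds of 2.77 to 3.0. For partner genes the count of 25 ran from 18 to 28 and stayed within 1.5 times. E-boxes in the whole peak interval were not counted, as no genome sequence was used. No paired analysis was possible because the series has a lone ChIP library. With 12 to 18 reads at most dynein summits, depth limits their order.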
